A study of Homo sapiens with 6 samples.

Results

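The 109 gene records described here had no read counted in any of the 6 RIP-seq libraries, yet each had a TPM (a transcript abundance corrected for length and scaled to the same total in every library) of at least 1 in all 6. They were taken from a table of 60655 gene records, of which 31471 were at 0 counts throughout and 11759 reached a TPM of 1 in every library. Measured values therefore chose the members, and their zero counts and TPM above 1 are a description, not a result. The records carried 99 distinct symbols, because 9 pseudoautosomal genes were listed at both an X and a Y locus and RMRP was listed under 2 gene types.

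RNA immunoprecipitation (RIP) captures RNA together with a protein and is followed by sequencing of that RNA. The cells were WaGa, an established line from Merkel cell carcinoma, a neuroendocrine skin cancer, and were wild type and untreated in all libraries. In 3 libraries the antibody recognised IGF2BP3 (labelled IMP3), an RNA-binding protein that acts on the stability and translation of its targets, and in the other 3 it was a control IgG. The comparison asked which RNAs were recovered with IGF2BP3 beyond the IgG background, and all libraries came from this single cell line.

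The most abundant members were small structured RNAs. RN7SK is the 7SK RNA, a scaffold that holds the elongation factor P-TEFb inactive; RPPH1 and RMRP are the RNA parts of the ribonucleases P and MRP; RN7SL2 encodes the 7SL RNA of the signal recognition particle, and SCARNA genes encode guides for the modification of spliceosomal RNAs in Cajal bodies. Transcripts of this kind often have near-identical copies in the genome or lie within longer genes. The protein-coding marker EEF1G encodes the gamma subunit of elongation factor eEF1, which delivers aminoacyl-tRNA to the ribosome.

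The sequences of 2 small RNA genes are shown because these members differ in whether parts of them recur elsewhere in the genome. RN7SK lies on GRCh38 chromosome 6, and the first 300 of its 328 bases are given for chr6:52995621-52995920 on the plus strand. Capitals mark bases 36 to 260, each lying under a sampled stretch of 100 bases found at 2 or more places in the genome:
RN7SK: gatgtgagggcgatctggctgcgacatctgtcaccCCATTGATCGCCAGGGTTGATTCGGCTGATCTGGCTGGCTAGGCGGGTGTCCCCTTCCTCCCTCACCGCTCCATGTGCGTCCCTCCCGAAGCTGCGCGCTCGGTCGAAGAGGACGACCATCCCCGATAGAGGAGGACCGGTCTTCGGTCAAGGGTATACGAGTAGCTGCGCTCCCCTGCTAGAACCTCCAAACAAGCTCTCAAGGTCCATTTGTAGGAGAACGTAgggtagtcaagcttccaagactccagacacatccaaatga
RMRP, listed as a ribozyme at chr9:35657754-35658017 on the minus strand, had no sampled stretch of 100 bases that occurred elsewhere, and no capital is used:
RMRP: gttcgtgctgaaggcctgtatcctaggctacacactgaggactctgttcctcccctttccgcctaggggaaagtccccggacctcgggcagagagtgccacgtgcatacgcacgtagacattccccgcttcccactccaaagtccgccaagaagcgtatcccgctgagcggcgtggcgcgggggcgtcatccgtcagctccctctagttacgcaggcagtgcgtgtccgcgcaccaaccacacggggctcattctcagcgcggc

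By gene type, 80 of the 109 records were protein-coding, 8 were lncRNAs, 5 were processed pseudogenes, 3 each were miscellaneous RNAs and transcribed unprocessed pseudogenes, 2 each were ribozymes, scaRNAs, snoRNAs and transcribed processed pseudogenes, and 1 each was an snRNA and an immunoglobulin constant gene. Grouped by name and structure, 11 were small RNAs, 18 were pseudoautosomal records, 17 were readthrough genes that join 2 neighbouring genes, 10 were pseudogenes, 7 were the remaining lncRNAs with the immunoglobulin gene, 23 were protein-coding records named only after a clone, and 23 were other protein-coding genes. Levels were very uneven. Mean TPM over the 6 libraries was above 1000 for 8 records, all of them small RNAs, and below 10 for 48.

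Exons of the members lay largely under exons of other genes. Of the 98 members found in the annotation used here, 91 (92.9%) shared at least 1 exonic base with another gene on either strand, against 52.5% of the 11631 annotated genes that had counts and the same TPM minimum. At least 90% of the exonic bases were covered in 72 members (73.5%), compared with 0.542% of the genes with counts. The median coverage was 99.9% in the members and 0.70% in the genes with counts. Members were also shorter, with a median of 1343.5 exonic bases against 5225 in the genes with counts. The part of length in these contrasts was not tested. Sharing was mostly on the same strand, with 90 members (91.8%) against 18.0% of the genes with counts. These shares describe the annotation and have no replicate error.

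The second feature was repeated sequence. In 19 of the 98 members (19.4%), at least 50% of the sampled stretches of 100 bases occurred at 2 or more places in the genome, as they did in 2.04% of the genes with counts. Either at least 50% coverage by another gene's exons or at least 50% repeated stretches applied to 96 of the 98 members (97.96%), compared with 5.39% of the genes with counts. The remaining members were the RMRP ribozyme record, at 0% by both measures, and NPFF, a neuropeptide gene, with 48.5% of its exonic bases under the exons of another gene. The RMRP lncRNA record, which carries the same symbol, was absent from the annotation used here, so its position could not be compared. The 0% coverage of the ribozyme record therefore leaves out any overlap with that record.

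**Figure D1:**
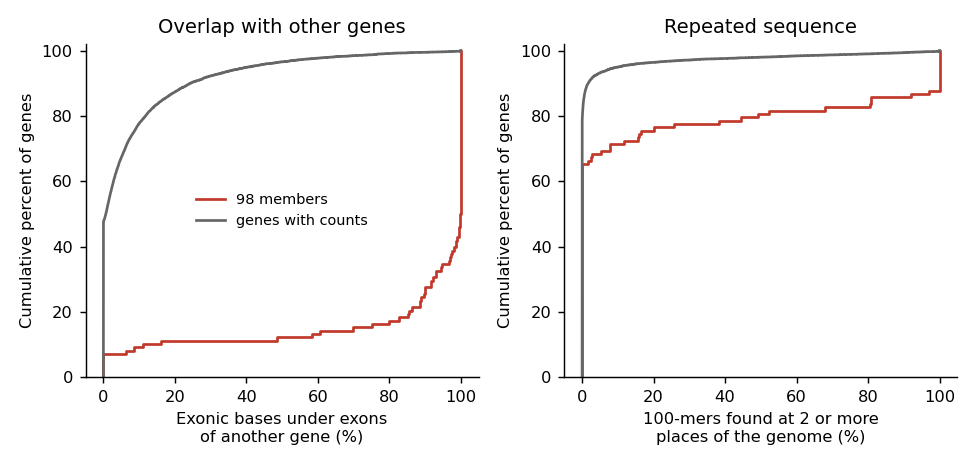
Cumulative percent of genes (y axes) by the percent of exonic bases under exons of another gene (left) and by the percent of 100-base stretches found at 2 or more places in the genome (right). Red lines are the 98 annotated members and grey lines the 11631 genes with counts; most members sit at the right end of the left panel, with a median of 99.9%, and 19 members had at least 50% repeated stretches.

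The groups differed in which of the features they showed. All 9 pseudoautosomal genes at their X locus had 100% of their stretches repeated, and none had 90% of its exons covered. Among the readthrough genes, 16 of 17 were covered to at least 90%, as were 8 of 9 annotated pseudogenes, 8 of 10 annotated small RNAs, 19 of 23 clone-named records and 17 of 23 other protein-coding genes. Records with the same values were common. In 10 pairs of members both records had identical TPM in every library, namely the 9 pseudoautosomal pairs and the pair PIGY and PYURF, which share all of their exonic bases.

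Of the 91 members that overlapped another gene, the gene covering most of their exons had at least 1000 counts summed over the 6 libraries in 31 cases, 10 or fewer in 27 and 0 in 14. The overlap with that gene was on the same strand in 88 cases. AC025423.2, a processed pseudogene with a TPM of 170 to 308, lay wholly within exons of MDM2, the ubiquitin ligase of p53, which had 5858 to 8692 counts and a TPM of 189 to 289 per library. RPS26P19 lay wholly within exons of POLR2D, a subunit of RNA polymerase II, and SCARNA12 within those of PHB2, a mitochondrial prohibitin. In contrast, RN7SK was wholly covered by a second record for the same RNA, named 7SK, which also had 0 counts and had a TPM of 0 to 64.16.

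The members held a large part of all TPM. This is a share of TPM, which is corrected for length, and not of reads, a share that is unknown for them. RN7SL1, a gene for the 7SL RNA that did have counts, held 12377 of 9758759 counts in IgG library 1, at a TPM of 26187. The members summed to 20.1%, 10.7% and 11.2% of all TPM in IgG libraries 1, 2 and 3, and to 18.7%, 8.84% and 9.13% in the same-numbered IGF2BP3 libraries. Both libraries numbered 1 stood well above the other 4, so the groups overlapped. The mean was 13.99% ± 5.27 (SD, n = 3) with IgG and 12.2% ± 5.60 (SD, n = 3) with IGF2BP3, a difference of -1.77 percentage points that did not exceed the spread between libraries (p = 0.5 by an exact permutation test, two-sided, which with 3 against 3 cannot go below 0.1).

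Within libraries of the same number the IGF2BP3 IP was lower in 3 of 3 pairs, by -1.38, -1.86 and -2.06 percentage points, and the exact sign-flip permutation test over pairs gave p = 0.25, the smallest it can give. When only IgG replicate 1 was left out, the difference in means turned to 1.27 percentage points. With both libraries numbered 1 left out it was -1.96.

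RN7SK alone made up about as much as all other members together, since the other 108 records held 49.4% of the summed member TPM. The 11 small RNA records held 97.3%. The other 98 members together came to 0.303%, 0.355% and 0.361% of all TPM with IgG and 0.351%, 0.371% and 0.376% with IGF2BP3, which was higher in 3 of 3 pairs (exact permutation test over the libraries, p = 0.3). On average the small RNAs were lower with IGF2BP3 and the remaining members higher. For the small RNAs the pairs differed by -1.42, -1.88 and -2.08 percentage points. Their exact permutation test over the libraries gave p = 0.5, and the sign-flip test over pairs gave p = 0.25, its smallest value. A rise was not particular to the members, since the estimate was above 0 in 74.1% of all tested genes and 62.4% of all members. With median centring these shares were 36.6% and 35.8%.

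**Figure D2:**
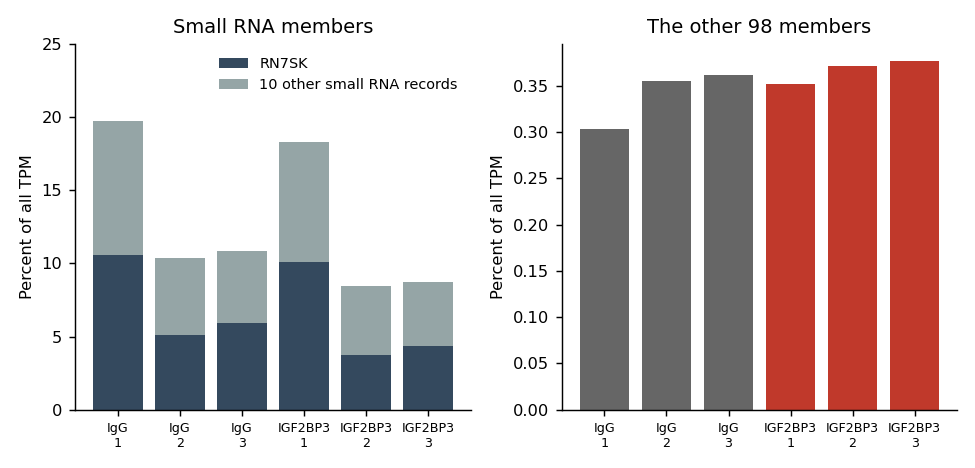
Percent of all TPM (y axes, from 0) held by the 11 small RNA records, with RN7SK in dark blue (left), and by the other 98 members (right), in each library, IgG before IGF2BP3. The bars on the left are highest in the libraries numbered 1, at 19.8% and 18.3%, and those on the right stay between 0.303% and 0.376%.

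RN7SK had a TPM of 105483, 51233 and 59519 with IgG and of 100946, 37406 and 43325 with IGF2BP3. The library numbered 1 was the highest in both groups, and the groups overlapped. Within same-numbered pairs RN7SK was lower with IGF2BP3 in 3 of 3, by log2 differences of -0.063, -0.45 and -0.46. On the log2(TPM + 1) scale the IGF2BP3 IP differed from the IgG IP by -0.33 (SE 0.35, 95% confidence interval -1.11 to 0.46; limma adjusted p = 1.00). With the replicate number as a term the SE was 0.089 and the limma adjusted p was 0.124.

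The gene list for the 7SK particle and P-TEFb held 8 genes, and RN7SK was its only member at 0 counts. The other 7 were protein genes with counts, among them LARP7 and MEPCE, which bind and cap 7SK, and CDK9, the kinase of P-TEFb. None of the 8 passed the test in either direction, with or without the replicate number as a term.

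RPPH1 (chr14:20343075-20343407) had a TPM of 35040, 13607 and 14609 with IgG and of 32447, 13519 and 12263 with IGF2BP3. It was lower in each same-numbered pair, by a log2 difference of -0.12 in the fit (SE 0.40; limma adjusted p = 1.00). All of its bases lay under AL355075.4, a lncRNA record with 0 or 1 count per library and a TPM of 369 to 1128. The RMRP ribozyme record was steadier, at 20135, 16538 and 15655 against 21405, 17084 and 15346, a log2 difference of 0.04 (SE 0.15).

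The RMRP lncRNA record went the other way from RN7SK, at a TPM of 2302, 1046 and 800 with IgG and 1998, 1685 and 1865 with IGF2BP3. The groups overlapped through IgG library 1, and the log2 difference of 0.57 (SE 0.31) did not pass (limma adjusted p = 0.944).

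RN7SL2 had a TPM of 25664, 14500 and 11424 with IgG and of 18691, 8721 and 8708 with IGF2BP3. It was lower in 3 of 3 same-numbered pairs, while the groups overlapped because of the libraries numbered 1. The log2 difference was -0.53 (SE 0.33; limma adjusted p = 1.00), and with the replicate number as a term its adjusted p was 0.0387, at a fold below the minimum of 1.5.

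RN7SL1, another gene for the 7SL RNA, did have counts, from 3320 to 12377 per library. Its TPM was 26187, 16279 and 12812 with IgG and 21723, 10130 and 9102 with IGF2BP3. RN7SL2 and RN7SL1 were thus given similar levels per length, with reads counted only for RN7SL1.

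The SCARNA genes, for spliceosomal RNA modification, differed in their spread between libraries, which was narrow for SCARNA13 and SCARNA2 and wider for SCARNA10 and SCARNA12. SCARNA13, within the host transcript SNHG10, had a TPM of 1994, 1801 and 1743 with IgG and 1824, 1923 and 1820 with IGF2BP3. SCARNA2 stood at 1555, 1507 and 1331 against 1332, 1371 and 1150, and SCARNA10 at 4993, 2943 and 2983 against 4350, 2776 and 2807. SCARNA12 had 293, 252 and 174 with IgG and 250, 143 and 137 with IGF2BP3, a log2 difference of -0.46 (SE 0.26; limma adjusted p = 0.972). Groups overlapped for each of these SCARNA genes, and SCARNA2, SCARNA10 and SCARNA12 were lower with IGF2BP3 in 3 of 3 pairs.

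Telomerase-vert, a record for the telomerase RNA, had a TPM of 101, 66.8 and 70.8 with IgG and 84.3, 75.3 and 70.4 with IGF2BP3. All of its bases lay under TERC, the standard record of the same RNA, which had 1 count or fewer per library.

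Mean TPM in the libraries numbered 1 was 2.16 times that of the others for RN7SK, 2.50 times for RPPH1, 2.05 times for RN7SL2, 1.62 times for SCARNA10, 1.59 times for the RMRP lncRNA record and 1.54 times for SCARNA12. It was 1.31 times for Telomerase-vert, 1.29 times for the RMRP ribozyme record, 1.08 times for SCARNA2 and 1.05 times for SCARNA13. Over all 109 records the median of this ratio was below 1, and 4 records reached 2, namely RN7SK, RPPH1, RN7SL2 and the readthrough gene CKLF-CMTM1. The part of this difference between libraries in the comparisons was not tested.

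**Figure D3:**
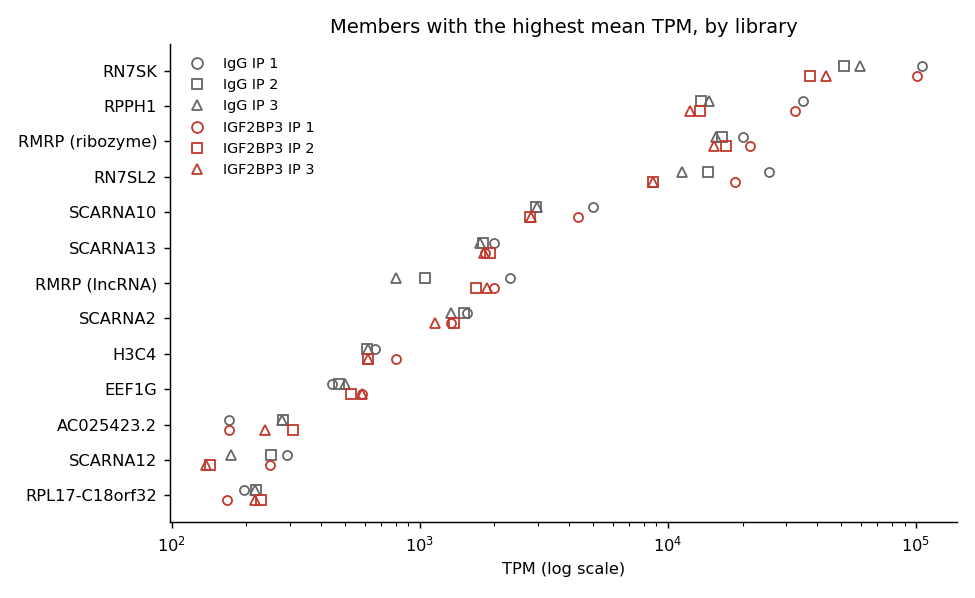
TPM (x axis, log scale) of the 13 members with the highest mean, in each library. Grey symbols are IgG IP, red symbols IGF2BP3 IP, and circles, squares and triangles are libraries 1, 2 and 3; the circles of RN7SK, RPPH1 and RN7SL2 lie to the right of the other libraries, and only EEF1G has all red symbols above all grey ones.

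EEF1G, on chromosome 11 from 62559596 to 62574086 (minus strand), had a TPM of 443, 473 and 498 with IgG and 588, 529 and 584 with IGF2BP3. Every IGF2BP3 library was above every IgG library. The log2 difference of 0.27 (SE 0.13, 95% confidence interval -0.03 to 0.56) did not pass the test (limma adjusted p = 0.905). Of its exonic bases, 99.7% lay under AP002990.1, a protein-coding record on the same strand with at most 3 counts and a TPM of at most 0.40 in any library.

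The other subunits of eEF1 had counts throughout. EEF1A1, the subunit that carries aminoacyl-tRNA, had 163226 to 210777 counts per library and a TPM of 10633 to 12810, and EEF1B2, an exchange factor subunit, had 13743 to 18817 counts and a TPM of 2491 to 2942. By TPM, EEF1G therefore ranked between EEF1B2 and EEF1D, whose TPM was 52.6 to 74.7, with no overlap between neighbours in any library. EEF1A2, like EEF1G, had every IGF2BP3 library above every IgG library, with a TPM of 17.74, 21.35 and 17.14 against 24.08, 27.49 and 28.21. Its log2 difference was 0.49 (SE 0.20). The groups of EEF1A1, EEF1B2, EEF1D and VARS1 overlapped. None of the 6 genes of the complex passed the test in either direction. The median log2 difference of the list was 0.23, beside 0.12 over all tested genes.

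Among the other members with high TPM, H3C4, a replication-dependent histone H3 gene, had 659, 614 and 617 with IgG and 801, 618 and 618 with IGF2BP3, so that the 2 groups were close outside the libraries numbered 1. It was the only one of the 87 histone genes listed that met the rule, and 96.6% of its bases lay under AL031777.2. AC025423.2 had a TPM of 170, 281 and 279 with IgG and 171, 308 and 238 with IGF2BP3. AC099329.1, a lncRNA, had 89.4, 108 and 114 against 93.6, 115 and 142.

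The 17 readthrough genes had mean TPM from 1.98 to 207. The highest was RPL17-C18orf32, which joins a ribosomal protein gene to its neighbour, at a TPM of 195, 219 and 218 with IgG and 167, 230 and 217 with IGF2BP3. Groups overlapped in all 17. Of the 133 readthrough names in the table, 43 entered the test and none passed.

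The pseudoautosomal genes, which lie on the shared ends of both sex chromosomes, had mean TPM from 2.28 to 52.3. SLC25A6, a mitochondrial ADP/ATP carrier, was the highest, with a TPM of 44.5, 42.6 and 47.4 with IgG and 57.2, 61.2 and 60.7 with IGF2BP3 at each of its 2 records. Its groups did not overlap. The log2 difference of 0.41 (SE 0.17) did not pass (limma adjusted p = 0.762). PLCXD1 likewise had 2.06, 2.63 and 2.72 against 2.88, 4.47 and 4.75. In 8 of the 9 genes, each counted once, the estimate was above 0, as it was in 74.1% of all tested genes. With median centring and with quantile normalization 5 of the 9 were above 0.

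Across all 13430 genes tested with limma on log2(TPM + 1), 3 (0.0223%) passed upwards, with more TPM under the IGF2BP3 antibody, and 0 (0%) passed downwards, at an adjusted p under 0.05 and a fold of at least 1.5. All 109 members entered the test, since the rule kept their TPM above its filter, and 0 passed. At an unadjusted p under 0.05 with the same fold, 3 members were higher and 0 lower, where 4.43% and 0.417% of all tested genes were. The median log2 difference of the members was 0.09, and that of all tested genes was 0.12. The estimate was above 0 in 68 members (62.4%) and in 74.1% of all tested genes. With median centring these shares were 35.8% and 36.6%, and with quantile normalization 43.1% and 45.3%.

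Deviations from the group means correlated at 0.41 between the libraries numbered 1. Between those numbered 2 and those numbered 3 they correlated at 0.17 and 0.12. Library 2 of one group and 3 of the other were similar, at 0.15 and 0.13, so numbers 2 and 3 are not told apart as pairs. The fit was repeated with the replicate number as a term. It called 172 genes higher (1.28%) and 5 lower (0.0372%) among all tested genes. Of the members, 1 was higher and 0 were lower. With no minimum on the fold, 1.65% of all tested genes were higher and 0.0447% lower, and of the members 1 was higher and 1, RN7SL2, was lower. The higher member was UPK3BL1, a uroplakin-like gene, and its call was gone when TPM was rescaled without the members.

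UPK3BL1 had a TPM of 18.0, 14.7 and 11.6 with IgG and 27.04, 23.2 and 24.2 with IGF2BP3. Every IGF2BP3 library was above every IgG library, by 1.66-fold in the fit (log2 0.73, SE 0.22; limma adjusted p = 0.583, and 0.0491 with the replicate number as a term). It lies on chromosome 7 from 102637025 to 102642791. Of its bases 98.2% were under exons of other genes, and 67.9% of its 100-base stretches were repeated.

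Every IGF2BP3 library exceeded every IgG library in 11 members, which carried 9 distinct symbols, and this order held in 9.81% of all tested genes. The reverse order held in 0 members and in 1.09% of all tested genes. Within same-numbered pairs, 26 members (23.9%) were higher with IGF2BP3 in 3 of 3 pairs, against 37.4% of all tested genes. Lower in 3 of 3 were 14 members (12.8%), against 6.01% of all tested genes. Records with identical values, such as those of SLC25A6 or PIGY and PYURF, were counted separately here. Besides EEF1G, UPK3BL1, SLC25A6 and PLCXD1, the members with every IGF2BP3 library on top were WDR83OS, SAP25, MYG1, PP7080 and AC006059.2.

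The largest estimate was that of AL445524.2, a clone-named record 81.4% covered by EGLN1, a prolyl hydroxylase of the oxygen response. Its TPM was 1.71, 1.33 and 1.62 with IgG and 1.63, 6.51 and 6.74 with IGF2BP3. IGF2BP3 library 1 stayed with the IgG libraries, and the log2 difference of 1.07 (SE 0.39) did not pass (limma adjusted p = 0.677).

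AC006059.2, 94.1% covered by CCDC13, was next, with 3.25, 2.75 and 2.46 against 5.69, 5.84 and 6.74. The groups did not overlap, and the log2 difference was 0.89 (SE 0.23; limma adjusted p = 0.499, and 0.0587 with the replicate number as a term). CENPS-CORT followed at 0.73 (SE 0.45), then UPK3BL1, and then AC010655.3 at 0.64 (SE 0.30). The groups of CENPS-CORT and AC010655.3 overlapped.

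The lowest estimate was that of AC007036.3, a lncRNA wholly within exons of MTURN, with a TPM of 7.54, 6.86 and 6.39 with IgG and 2.43, 10.4 and 1.56 with IGF2BP3. The IGF2BP3 libraries fell on both sides of the IgG libraries, and the log2 difference was -0.77 (SE 0.47; limma adjusted p = 1.00). RN7SL2, NDUFC2-KCTD14 (-0.52, SE 0.34), RPL32P29 (-0.47, SE 0.25) and SCARNA12 were the next lowest, and none passed.

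**Figure D4:**
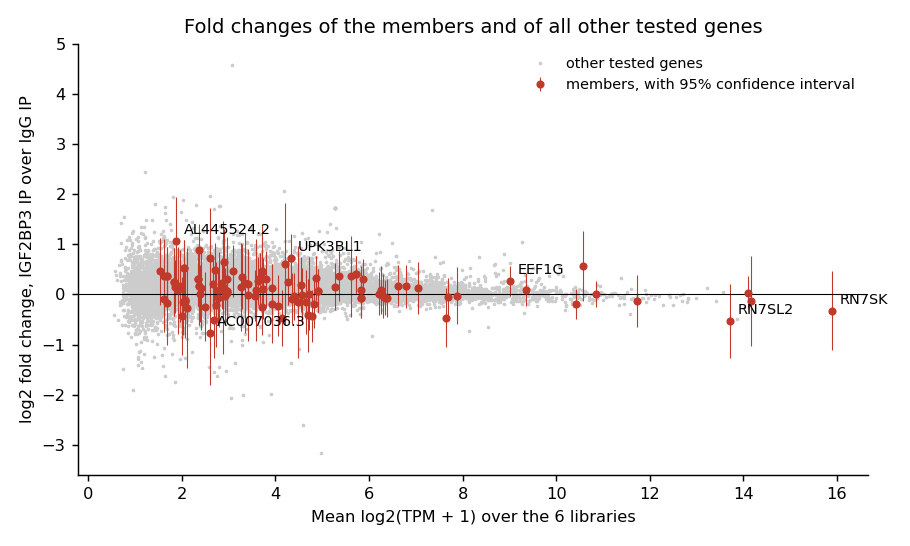
Log2 fold change of IGF2BP3 IP over IgG IP (y axis) against mean log2(TPM + 1) over the 6 libraries (x axis) for all 13430 tested genes. Members are red points with bars for their 95% confidence interval, other genes are grey, and the members spread from -0.77 to 1.07 around a median of 0.09.

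HMGA1, an architectural chromatin protein gene that the study examined further, had a TPM of 84.7, 85.1 and 100 with IgG and 279, 312 and 287 with IGF2BP3. With a log2 difference of 1.69 (SE 0.15; limma adjusted p = 0.00384) it was among the 3 genes called. ZMIZ1, a transcriptional coregulator gene, had 12.9, 27.7 and 25.8 with IgG and 43.5, 75.6 and 57.6 with IGF2BP3, a log2 difference of 1.41 (SE 0.31; limma adjusted p = 0.405, and 0.0154 with the replicate number as a term). The study used another test, DESeq2, at the same thresholds. It reported both genes as top hits that were also enriched by RT-qPCR. The number of genes called here is therefore not the number the study found enriched.

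The rule's limits ran through a continuum. Just inside it were ZNF625-ZNF20, FCF1P2 and ARPIN-AP3S2, with a lowest TPM of 1.00, 1.02 and 1.09. Just outside, at 0 counts, were NPIPA7 with a lowest TPM of 0.95 and AL137129.1 and WASH6P with 0.90 each. On the side of the counts, 6 genes with a TPM of at least 1 in all libraries had a single count in all, among them SMIM11A, whose TPM was 64.6, 56.6 and 54.7 with IgG and 30.9, 4.36 and 4.39 with IGF2BP3. In all, 60 such genes had 1 to 10 counts. SMIM11B, a record of similar name to SMIM11A, went the other way. It was among the genes called higher with IGF2BP3, at a log2 difference of 4.58 (SE 0.38). The relation between the values of these records was not tested.

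Total counts ranged from 9758759 to 14886414 per library. The 8 markers of Merkel cell carcinoma, among them ATOH1, KRT20 and CHGA, had counts in every library. Of 10 markers of fibroblasts, leukocytes and endothelium, only DCN, a proteoglycan gene, reached the TPM filter, at 29.2 to 54.1, and PTPRC and CD3E were at 0 counts.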

How the data were processed

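RNA recovered with an IGF2BP3 antibody or a control IgG from WaGa cells was sequenced by the study as 150-base read pairs, with 3 libraries per group. The labels call the replicates independent. The authors aligned reads to GRCh38 with STAR 2.7.9a and estimated levels with RSEM on GENCODE version 37. RSEM divides a read that fits several transcripts among them. The deposited TPM values are scaled to the same total in every library, the deposited FPKM values differ from them by a fixed factor per library, and the deposited counts are whole numbers per gene, for which the counting program, its use of strand and its handling of ambiguous reads are not given in the sources used here. Whether both were made in a single quantification is likewise not given, and its part in which genes meet the rule was not tested. Libraries held 9758759 to 14886414 counts.

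Members and gene lists were chosen with earlier results of these data known. Named genes were RN7SK and EEF1G, the 10 members of the highest mean TPM, the 5 of the largest and smallest log2 difference, members past the thresholds, the 2 of the highest TPM per gene type with at least 3 members, the 3 nearest the TPM limit on each side, genes covering them, list members, and HMGA1 and ZMIZ1. Other members were named after their values were seen.

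IGF2BP3 IP was compared with IgG IP by limma 3.58.1 (R 4.3.3) with an intensity trend on log2(TPM + 1), over genes with a TPM of at least 1 in at least 3 libraries, with Benjamini-Hochberg adjustment over all of them. A fold on this scale understates changes of low genes. Deviations from the group means correlated at 0.41, 0.17 and 0.12 between same-numbered libraries, over genes, and the replicate number was used as a pairing. Library 2 of one group and 3 of the other correlated at 0.15 and 0.13, so the pairing of numbers 2 and 3 rests on the labels alone. On simulated data for this comparison (13430 genes, 200 changed) the fit recovered 15% of 2-fold, 84.5% of 4-fold and 96% of 8-fold changes, and with the pairing 0%, 70.5% and 93%. The simulated libraries were drawn independently, with no effect shared by same-numbered libraries. They therefore cannot show whether the pairing gains or loses calls in the real libraries.

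Exons, positions and overlaps come from GENCODE version 44 on GRCh38, because version 37 was not used here. It held 98 of the 109 members, and overlaps were counted only with genes of the deposited table. The 11 others were 9 Y-locus records, the RMRP lncRNA record and AL157400.5. Stretches of 100 bases, taken every 5 bases along exons, were searched on both strands of 194 sequences of the genome. Alternatives covered the pseudocount, filters, scaling, FPKM, the variance trend, the pairing, the membership rule and single libraries. Lists of spliceosomal snRNAs, RNA polymerase III transcripts, protocadherin and UGT1A clusters and mitochondrial genes had 0 genes past the thresholds.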

Additional observations from a re-analysis of the deposited data

How the results depend on the processing

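No member passed the thresholds under a pseudocount of 0.1, either other filter, the 3 other scalings, FPKM, no intensity trend, no fold minimum, the 3 other membership rules or the removal of any single library (0 to 0 members). With the replicate block 1 member passed (UPK3BL1), and with a term for replicate 1 against the others, chosen after seeing the data, 2 passed (UPK3BL1 and AC006059.2). With the block and TPM rescaled without the members, also chosen after seeing the data, 0 did. The replicate block changed no other call of a named member.

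Among all tested genes, where 3 were called, the count was 0 without a filter, 6 with median centring, 9 with quantile normalization and with FPKM, 1 without the trend, 177 with the replicate block, 390 with the term for replicate 1 and 130 with the block and rescaled TPM. Leaving out 1 library gave 2 to 5. Scaling set the sign of the members' median: it was 0.09 beside 0.12 for all tested genes, -0.11 beside -0.08 with median centring and -0.022 beside -0.020 with quantile normalization, and -0.0087 to 0.17 when 1 library was left out. The rule gave 66 members at a TPM of at least 5 and 169 with at most 10 counts. The difference in summed member TPM of -1.77 percentage points ranged from -5.0 to 1.27 when 1 library was left out, and was 1.27 without IgG replicate 1. The replicate block leaves it at -1.77 by construction, since the pairs are balanced.

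Of 17 other fits, 5 (both other filters, no trend, the replicate block and the term for replicate 1) leave each estimate as it is by construction. In the other 12, 34 of 324 estimates of 27 named members changed sign, in 11 members, and none of these members passed in any of them. Outside the removal of single libraries, the sign changed for RPPH1 with quantile normalization (0.050), for RMRP (the ribozyme record) with median centring (-0.16) and FPKM (-0.068), for SCARNA13 with median centring (-0.18), TPM rescaled without the members (-0.019), FPKM (-0.094) and the block with rescaled TPM (-0.019), for H3C4 with median centring (-0.10) and FPKM (-0.0051), and for AC099329.1 with median centring (-0.034). When 1 library was left out, estimates ranged from -0.57 to 0.31 for RPPH1, -0.099 to 0.14 for RMRP (the ribozyme record), -0.34 to 0.13 for SCARNA10, -0.031 to 0.066 for SCARNA13, -0.027 to 0.16 for H3C4, -0.14 to 0.15 for Telomerase-vert, -0.27 to 0.19 for AC025423.2, -0.78 to 0.25 for RPS26P19, -0.49 to 0.28 for AC092032.2 and -0.82 to 0.21 for FCF1P2. The cause was not tested.

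The spread between 3 libraries, wide for RN7SK, RPPH1 and RN7SL2 because of the libraries numbered 1, limits these comparisons. The depth behind a TPM of a member is unknown, because no reads were counted for it.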

Other observations

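The reverse case, genes with counts but listed at a TPM of 0 in every library, comprised 99 genes with at least 10 counts in each library. They included 26 snRNAs, 23 processed pseudogenes, 16 lncRNAs and 12 snoRNAs. RNU4-2, a U4 spliceosomal RNA gene, had 505, 603 and 600 counts with IgG and 558, 473 and 542 with IGF2BP3. RNVU1-18, a U1 variant, had 718 to 786 counts with IgG and 617 to 787 with IGF2BP3. Of the 19 spliceosomal snRNA records listed, 17 were at a TPM of 0 throughout.

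Pseudogenes of 7SK showed counts where RN7SK itself had none. Of 293 such records, 42 had counts, which summed to 605, 363 and 292 with IgG and 857, 258 and 219 with IGF2BP3, while their summed TPM was at most 14.8 in any library. RN7SKP80 alone had 355, 201 and 144 counts with IgG and 450, 140 and 129 with IGF2BP3, and a TPM of 0. As for the TPM of RN7SK, the libraries numbered 1 were the highest of each group. The source of these reads was not tested.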
